A study of Mus musculus with 24 samples.

Results

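The transcripts described here are the 52 members of the co-expression module that the study numbered M[6] and that are not among its inflammatory chemokines. The study had grouped the transcripts that changed over time after a sham operation by how they varied across all 24 mice, and M[6] holds 56 of them. Ccl6, Ccl8, Ccl9 and Ccl12 were left out. Mrc1, Cxcl5 and Icam1 would have been left out as well but lie in other modules. The 52 members stand against 63758 transcripts listed and 8940 tested. Gene symbols could be assigned to 1209 transcripts. All 52 passed the filter on low counts. Because the module was built from the time course and from the co-variation of these same samples, the levels, the fold changes and the shared ups and downs of the members are given below as a description. The calls come from a test fitted over all transcripts and, for the members, are no independent evidence of a change.

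The samples were left ventricular myocardium of male mice of the C57BL/6J strain (C57BL/6 in the labels) aged 8 to 12 weeks. Each sample was 1 mouse, and 8 mice were taken at 0 min, 8 at 45 min and 8 at 24 h. All mice were anesthetized with pentobarbital and buprenorphine, were ventilated and had the chest opened on the left, and a suture was passed under the left anterior descending coronary artery without being tied. At 0 min and 45 min the heart was taken with the chest still open, whereas mice at 24 h had the chest closed after 45 min and recovered. No mouse was left without surgery, so the 0 min mice are the reference and carry the anesthesia and the opened chest too. Mice are named by time point and by the replicate number of the labels. Surgeon and library pool were not in the labels and were not used.

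Total counts per library ranged from 9887957 to 14091629, and 12972 to 18865 transcripts had at least 1 count. Cardiomyocyte transcripts were abundant in every library, with Actn2, Actc1 and Mybpc3 together at 14580 to 22216 CPM (read counts scaled to a common library size) at 0 min and 5468 to 10204 CPM at 24 h. Most of that sum was Actc1, with means of 14854 CPM at 0 min and 5717 CPM at 24 h, where Actn2 had 2528 and 2199 CPM. All 3 lie in M[2], a module that the study described as decreasing at 24 h, so the sum does not stand for cardiomyocyte RNA as a whole. Some libraries stood apart in the members. Replicate 8 at 24 h was the lowest of its time point in 48 of 52 members. Replicate 5 at 0 min was the highest of its time point in 49, and replicate 8 at 45 min in 28. Replicate 5 at 0 min had 14778 transcripts detected, where replicate 7 of that time point had 14597, and replicates 6, 7 and 8 at 45 min had the 3 lowest numbers of their time point, at 13743, 14353 and 12972. Many results that rest on replicate 8 at 24 h or replicate 5 at 0 min are given with and without these libraries.

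Many members are known from innate immune cells that take up and digest particles. PU.1, the product of Spi1, is the transcription factor that sets the myeloid fate, and macrophages, monocytes and neutrophils share its targets. These cells carry receptors for the Fc part of antibodies, which signal through a common chain, and they digest what they engulf in an acidic compartment fed by proteases and metal transporters. They are known to enter injured heart muscle within the first day. Other members belong to plasma and platelet proteins, to the extracellular matrix and to protein synthesis, and are made by many cell types.

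Since Spi1 was itself a member, the promoters of the members were read for the core of the PU.1 site. The table of RefSeq promoters (GRCm38.p6) used here gave a start site for 38 of the 52 members, and the 250 bases before the start were searched on both strands for GAGGAA. It was present in 12 of the 38 (31.6%), against 23.3% of 32851 promoters of the same length. The 4 members in which it lay nearest to the start were Pf4, Csf2ra, Efhd2 and Fcgr1. They are printed 5′ to 3′ on the strand of the gene, so that the last base is the one before the start, and capitals mark GAGGAA or, where it lies on the other strand, TTCCTC.
Pf4 (chr5:90772185-90772434, plus strand): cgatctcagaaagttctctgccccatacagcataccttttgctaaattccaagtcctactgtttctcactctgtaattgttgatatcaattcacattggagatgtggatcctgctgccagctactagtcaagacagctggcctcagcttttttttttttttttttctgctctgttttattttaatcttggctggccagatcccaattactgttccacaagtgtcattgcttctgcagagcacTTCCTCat
Csf2ra (chr19:61228419-61228668, minus strand): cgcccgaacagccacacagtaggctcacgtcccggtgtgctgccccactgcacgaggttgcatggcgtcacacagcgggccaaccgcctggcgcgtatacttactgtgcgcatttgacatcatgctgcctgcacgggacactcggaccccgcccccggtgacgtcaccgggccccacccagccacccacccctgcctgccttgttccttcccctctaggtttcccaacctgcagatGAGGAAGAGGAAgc
Efhd2 (chr4:141874921-141875170, minus strand): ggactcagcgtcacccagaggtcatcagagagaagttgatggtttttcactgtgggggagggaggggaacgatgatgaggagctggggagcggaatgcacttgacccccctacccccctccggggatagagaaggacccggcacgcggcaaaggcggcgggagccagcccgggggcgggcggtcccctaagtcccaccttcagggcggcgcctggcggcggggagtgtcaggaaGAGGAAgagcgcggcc
Fcgr1 (chr3:96293970-96294219, minus strand): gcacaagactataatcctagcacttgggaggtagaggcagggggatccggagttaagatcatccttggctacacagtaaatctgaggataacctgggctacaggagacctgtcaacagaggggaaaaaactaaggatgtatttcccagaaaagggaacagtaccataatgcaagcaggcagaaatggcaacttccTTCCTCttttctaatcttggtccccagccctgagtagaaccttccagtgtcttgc
In Csf2ra the 6 letters occurred 2 times side by side, starting 14 and 8 bases before the start. They began 8 bases before it in Pf4, 16 in Efhd2 and 55 in Fcgr1. The other members that held them were Aldh3b1, Cd68, Cyp4f18, Emilin1, Mvp, Slc11a1, Thbs4 and Tnfrsf1b. The GENCODE M21 annotation begins Csf2ra at chr19:61228429 and Emilin1 at chr5:30913402. By that annotation the Csf2ra match 8 bases before the start and the whole Emilin1 window lie inside the gene. CCAAT, the NF-Y site, was in 13 of the 38 (34.2%) against 33.8% of all promoters. TGAGTCA, the AP-1 site, was in 2 (5.3%) against 4.5% of all promoters. The C/EBP, STAT and NF-kB patterns (TTGCNNCAA, TTCCNGGAA and GGGANTTCC) were in 1 each (2.6%), against 1.7%, 0.91% and 1.4% of all promoters. A match describes letters in this window and is neither a bound site nor a cause.

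All 52 members were higher on average at 24 h than at 0 min. The fitted log2 fold changes ran from 0.38 for Pa2g4 to 4.42 for Hp with a median of 1.12, where the median over all transcripts tested was 0.0033. In bulk tissue a difference in the number of cells of a type and one in RNA per cell cannot be told apart. By edgeR's quasi-likelihood test adjusted over all transcripts, 43 members were called higher and 0 lower. Among all transcripts tested 4.44% were called higher and 3.24% lower. The 9 members not called were P2ry6, Csf2ra, Rpp25, Card9, Lrrc25, Thbs4, Pf4, Cfp and Snx20. At an unadjusted p under 0.05 in the same edgeR test there were 51 members higher and 0 lower, beside 9.84% and 9.28% of all transcripts. Against 45 min, 27 members were called higher at 24 h and 0 lower, beside 4.59% and 4.51% of all transcripts. Leaving out some single libraries lowered the counts by over 1.5 times. Against 0 min, 24 members were called without replicate 3 at 24 h, beside 3.05% of all transcripts, and 28 without replicate 2, beside 3.04%. Against 45 min, 12 were called without replicate 2 or replicate 3 at 24 h, 14 without replicate 5 at 24 h or replicate 2 at 45 min, and 17 without replicate 6 or 7 at 24 h or replicate 1, 3 or 5 at 45 min, and the share of all transcripts in these fits ran from 2.78% to 4.35%. At 45 min against 0 min no member was called in either direction, beside 0.481% of all transcripts called higher and 0.246% lower. DESeq2 also called 0 members there, beside 0.634% of all transcripts called higher. At an unadjusted p under 0.05 edgeR had 4 members higher (Rtn4rl2, Tgm2, Efhd2 and Myd88, a set named after its values were seen) and 0 lower. Of all transcripts, 2.94% were higher and 2.84% lower by that measure. All of these contrasts formed the module, so nothing is read from the counts.

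**Figure D1:**
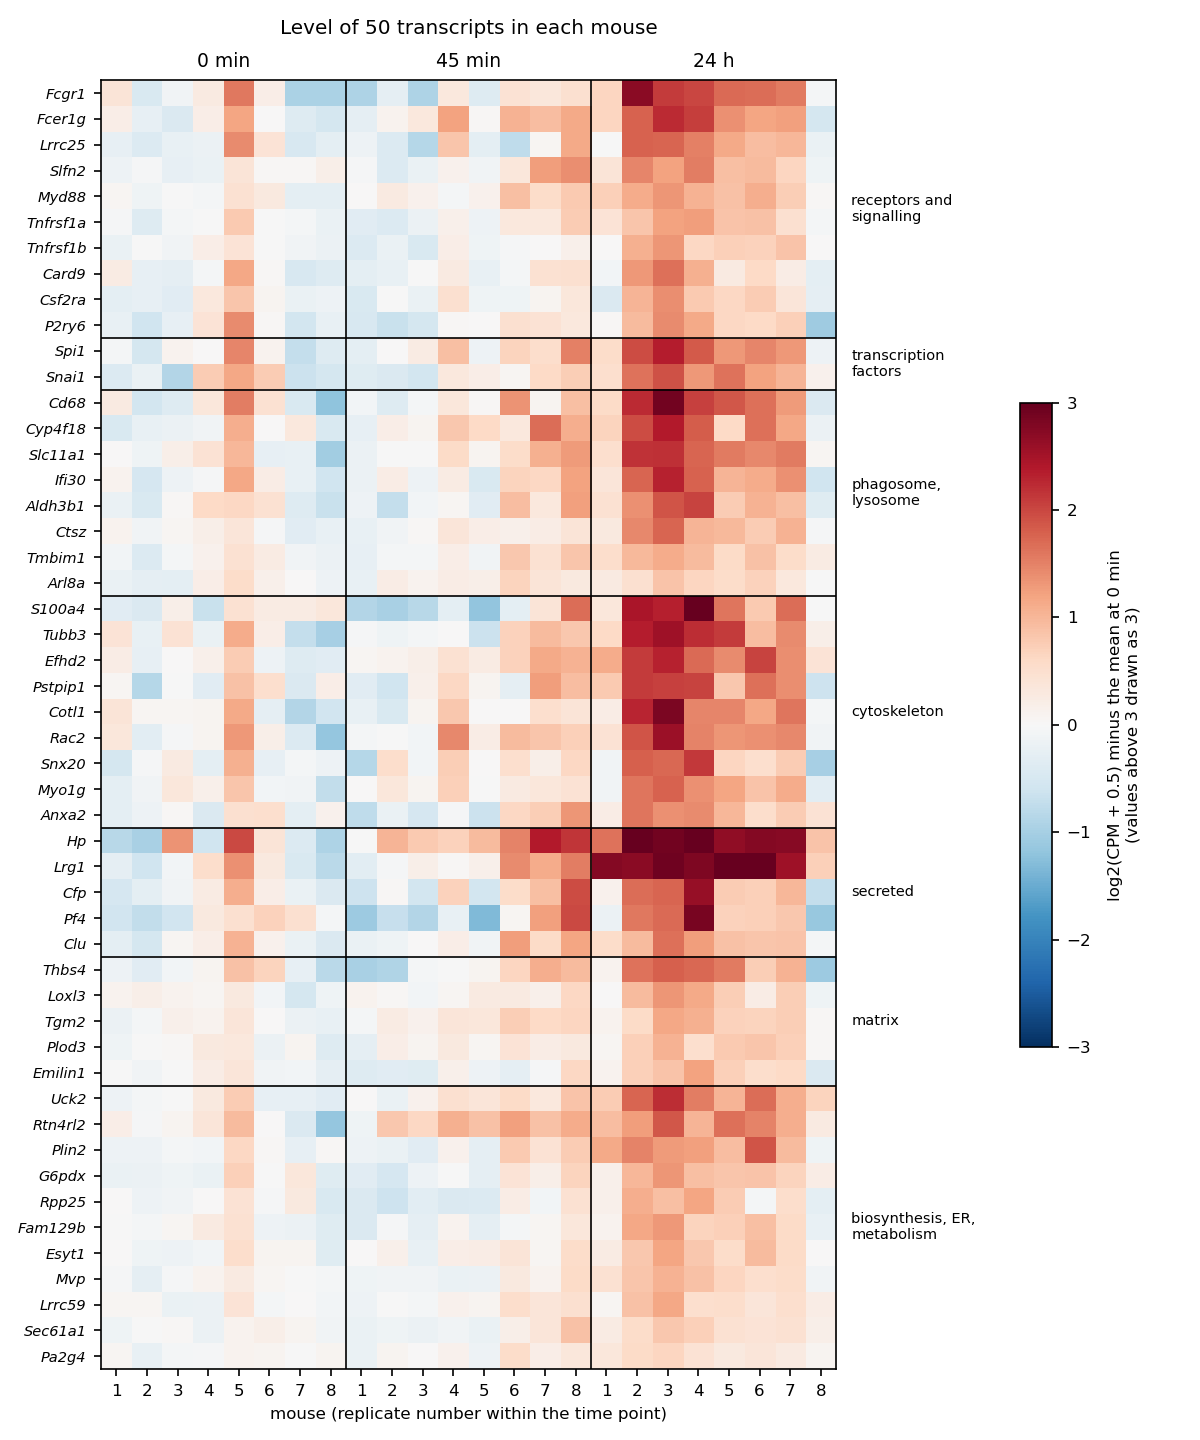
Level of 50 of the 52 members (rows, by role) in each of the 24 mice (columns), as log2(CPM + 0.5) minus the mean of the 0 min mice of that row, with red above and blue below that mean. The 24 h block is red except in replicate 8, whose column is close to the 0 min mean, and replicate 1, which is pale in most rows but not in Lrg1; replicate 5 at 0 min is the one red column of its block.

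The receptors and signalling molecules were 11 members, of which 7 were called higher at 24 h, with a median log2 fold change of 0.91. Fcer1g, the signalling chain that activating Fc receptors share, measured 7.94 to 27.0 CPM at 0 min with a median of 10.7, and 8.01 to 57.4 CPM at 24 h with a median of 29.7. Its lowest mouse at 24 h was replicate 8 and its highest replicate 3, and replicates 1 and 8 at 24 h lay below the highest 0 min mouse. The log2 fold change was 1.38 ± 0.32 (SE, n = 8 and 8). Fcgr1, the high-affinity IgG receptor that marks macrophages and monocytes, had a median of 1.29 CPM at 0 min (0.383 to 4.60) and 4.99 CPM at 24 h (1.13 to 10.7), a log2 fold change of 1.79 ± 0.44. Replicate 5 at 0 min, at 4.60 CPM, exceeded 3 of the 24 h mice in Fcgr1.

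Myd88, the adaptor of toll-like and interleukin-1 receptors, went from a median of 17.1 CPM (14.1 to 24.0) to 34.4 CPM (18.0 to 44.2), a log2 fold change of 0.91 ± 0.17. Replicate 8 alone of the 24 h mice lay within its 0 min range. Both receptors for tumor necrosis factor were called, Tnfrsf1a higher by 0.75 ± 0.20 and Tnfrsf1b higher by 0.73 ± 0.17 on the log2 scale. Tnfrsf1a had a median of 73.1 CPM at 0 min (57.6 to 130.0) and 136 CPM at 24 h (72.7 to 183). Slfn2 was called as well. Not called were Csf2ra, which binds the growth factor GM-CSF (0.60 ± 0.23), the UDP receptor P2ry6 (0.60 ± 0.33), Card9, the adaptor of receptors for fungal sugars (0.72 ± 0.30), and Lrrc25 (1.07 ± 0.37).

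Of the transcription factors, Spi1 had a median of 5.85 CPM at 0 min (3.41 to 17.4) and 16.4 CPM at 24 h (5.34 to 32.7), with a log2 fold change of 1.41 ± 0.35. Its 24 h mice lay at 22.7 CPM and above in replicates 2, 3 and 4, between 15.4 and 17.4 CPM in replicates 5, 6 and 7, at 8.90 CPM in replicate 1 and at 5.34 CPM in replicate 8. Replicate 5 at 0 min, at 17.4 CPM, reached the middle of the 24 h mice, while the other 0 min mice had at most 6.42 CPM. Without both of these libraries, which were picked for their values in the members, the log2 fold change of Spi1 was 1.91 ± 0.29. Snai1, the Snail repressor known from epithelial to mesenchymal transition, had a median of 3.22 CPM at 0 min (2.02 to 9.78) and 10.5 CPM at 24 h (4.53 to 16.7), a log2 fold change of 1.16 ± 0.32.

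All 9 members of the phagosome, lysosome and lipid mediator group were called higher, with a median log2 fold change of 1.20. Cd68, the lysosomal glycoprotein most used to stain macrophages, had a median of 5.87 CPM at 0 min (2.30 to 18.2) and 21.4 CPM at 24 h (4.29 to 47.1). It ranged over 6 of the 24 h mice from 15.1 to 47.1 CPM, with replicate 1 at 9.05 and replicate 8 at 4.29 CPM, and its log2 fold change was 1.63 ± 0.40. Ctsz, a lysosomal cysteine protease, had a median of 29.7 CPM (23.2 to 38.0) at 0 min and 59.4 CPM (28.6 to 101) at 24 h, a change of 1.00 ± 0.19. The smallest changes of the group were in Tmbim1, a membrane protein of the endosomal system (0.73 ± 0.17), and Arl8a, a small GTPase that moves lysosomes (0.47 ± 0.14). The group also held the phagosomal metal transporter Slc11a1, the lysosomal thiol reductase Ifi30, Cyp4f18, which inactivates leukotriene B4, and the aldehyde dehydrogenase Aldh3b1.

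The 9 members of the leukocyte cytoskeleton and motility group had the largest median log2 fold change of the 7 role groups, 1.57, and 8 were called higher. S100a4, a calcium-binding protein of motile leukocytes and fibroblasts, had a median of 7.24 CPM at 0 min (3.75 to 8.71) and 20.5 CPM at 24 h (6.15 to 80.7), a log2 fold change of 2.07 ± 0.47. Replicate 4 held the value of 80.7 CPM, and without that library the change was 1.56 ± 0.43. Efhd2, a calcium-binding regulator of actin, had a median of 29.6 CPM at 0 min (23.7 to 53.6) and 93.5 CPM at 24 h (41.8 to 157), a change of 1.63 ± 0.24. Cotl1, an actin-binding protein, changed by 1.57 ± 0.34 and Anxa2, a membrane protein that binds S100 partners, by 0.98 ± 0.28. Tubb3, a tubulin known from neurons, had a median of 1.46 CPM at 0 min (0.478 to 3.72) and 6.27 CPM at 24 h (1.70 to 10.8), a change of 1.88 ± 0.40. Snx20, which binds a leukocyte adhesion ligand, was at 0.324 to 6.57 CPM at 24 h and was not called (1.28 ± 0.43). Rac2, the small GTPase of blood cells, Myo1g and Pstpip1 were called higher as well.

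**Figure D2:**
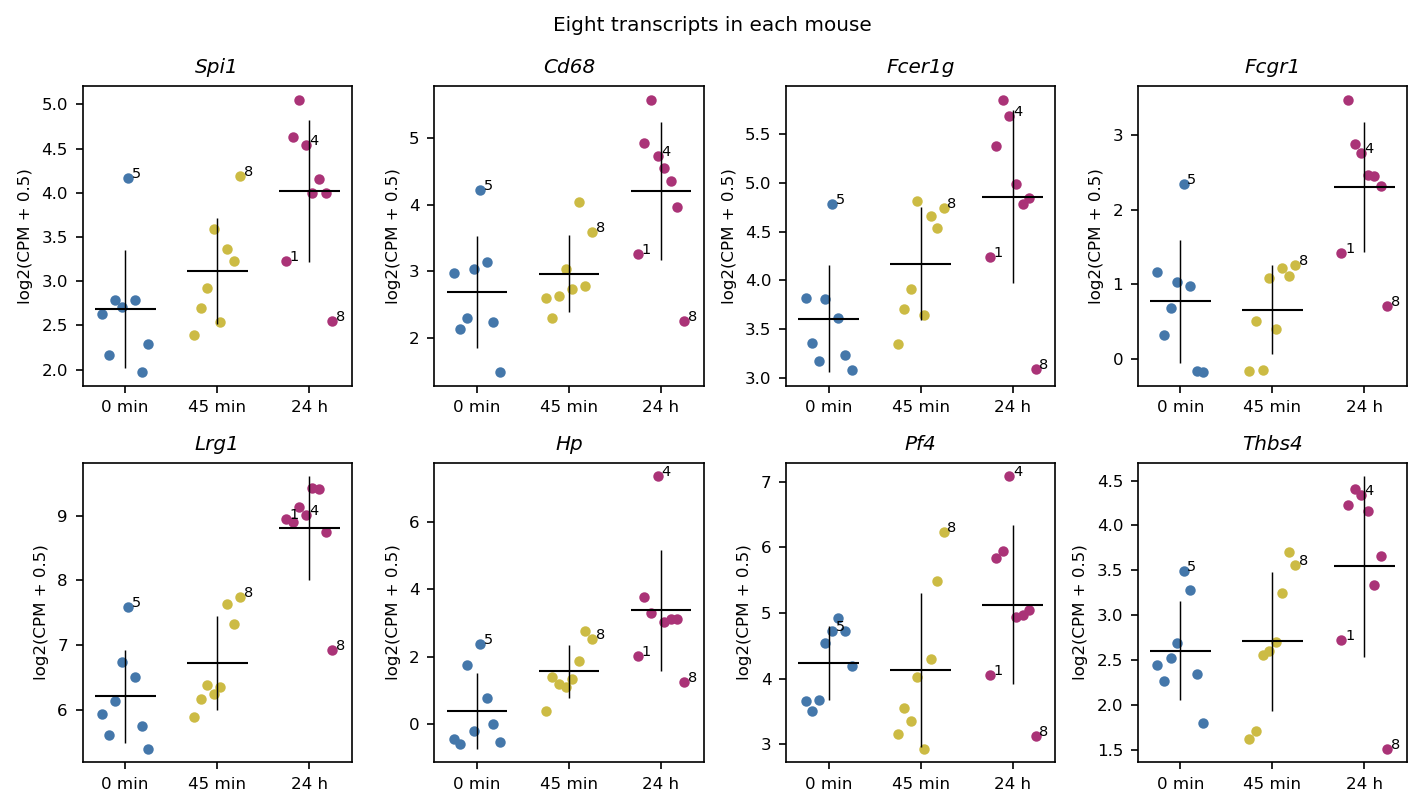
Level of 8 members in each mouse on the log2(CPM + 0.5) scale by time point; points are mice, horizontal bars the mean and vertical lines 1 SD over 8 mice, and the digits name replicates 1, 4 and 8 at 24 h, replicate 8 at 45 min and replicate 5 at 0 min. In all 8 panels replicate 8 is the lowest mouse at 24 h, Lrg1 is the one panel in which replicate 1 sits with the other 24 h mice, and in Hp and Pf4 replicate 4 lies above the rest.

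The secreted proteins, 5 members of which 3 were called, held the largest fold changes and the widest spread. Lrg1, a plasma glycoprotein of the acute phase also made by neutrophils and endothelium, had a median of 65.1 CPM at 0 min (41.5 to 191) and 504 CPM at 24 h (121 to 689). Of the 24 h mice 7 lay between 427 and 689 CPM, replicate 1 among them at 493 CPM, and replicate 8 was at 121 CPM, inside the 0 min range. The log2 fold change was 2.58 ± 0.36. Hp, haptoglobin, the plasma protein that binds free hemoglobin, had a median of 0.427 CPM at 0 min (0.166 to 4.70) and 8.26 CPM at 24 h (1.86 to 165). Its log2 fold change of 4.42 ± 0.87 rested in part on replicate 4 at 165 CPM, where the next mouse had 13.2 CPM, and without that library it was 2.51 ± 0.58. The lowest 0 min library had 2 reads of Hp.

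Pf4, platelet factor 4, is itself a CXC chemokine by family and was not on the list that was left out. It had a median of 20.3 CPM at 0 min (10.8 to 29.9) and 31.7 CPM at 24 h (8.17 to 135), with replicate 4 the highest. Its log2 fold change of 1.23 ± 0.49 was not called, and it was 0.73 ± 0.47 without replicate 4. Cfp, properdin, a stabilizer of the alternative complement pathway released by myeloid cells, was not called either (1.24 ± 0.41, and 0.85 ± 0.39 without replicate 4). Clu, clusterin, an extracellular chaperone, went from a median of 883 CPM (644 to 1912) to 1672 CPM (889 to 2904), a change of 0.85 ± 0.26.

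The 5 matrix genes changed less, with a median log2 fold change of 0.66, and 4 were called. Tgm2, the tissue transglutaminase that crosslinks matrix proteins, had a median of 341 CPM at 0 min (299.8 to 449) and 559 CPM at 24 h (356 to 780), a change of 0.66 ± 0.16. Plod3, a lysyl hydroxylase of collagen, changed by 0.62 ± 0.15, and Emilin1, a glycoprotein of elastic fibers, by 0.60 ± 0.18. Loxl3, of the lysyl oxidase family, was called as well. Thbs4, a thrombospondin of tendon and injured heart, had a median of 5.09 CPM at 0 min (2.97 to 10.8) and 14.7 CPM at 24 h (2.35 to 20.6), and its difference of 1.14 ± 0.37 was not called. In replicate 8 at 24 h, Thbs4 was below every 0 min mouse.

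The 11 genes of biosynthesis, the endoplasmic reticulum and metabolism had a median log2 fold change of 0.71 and 10 were called. They include the smallest change of the module, in Pa2g4, a growth regulator that binds ribosomes (0.38 ± 0.11), and small ones in Sec61a1, the pore through which new proteins enter the endoplasmic reticulum (0.49 ± 0.14), and in Lrrc59, a ribosome-binding protein of that membrane (0.56 ± 0.15). Pa2g4 had a median of 60.6 CPM at 0 min (51.4 to 64.0) and 76.0 CPM at 24 h (63.2 to 93.5), and 7 of the 24 h mice were above all 0 min mice. Plin2, the coat protein of lipid droplets, had a median of 66.8 CPM at 0 min (58.9 to 108) and 160.1 CPM at 24 h (63.9 to 261), a log2 fold change of 1.17 ± 0.22. Mvp, the major vault protein, changed by 0.63 ± 0.14. Rpp25, a subunit of RNase P, was the member not called (0.72 ± 0.25). The group also held the nucleoside kinase Uck2, the pentose phosphate enzyme G6pdx, the lipid transfer protein Esyt1, Fam129b and Rtn4rl2, a Nogo receptor homolog.

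**Figure D3:**
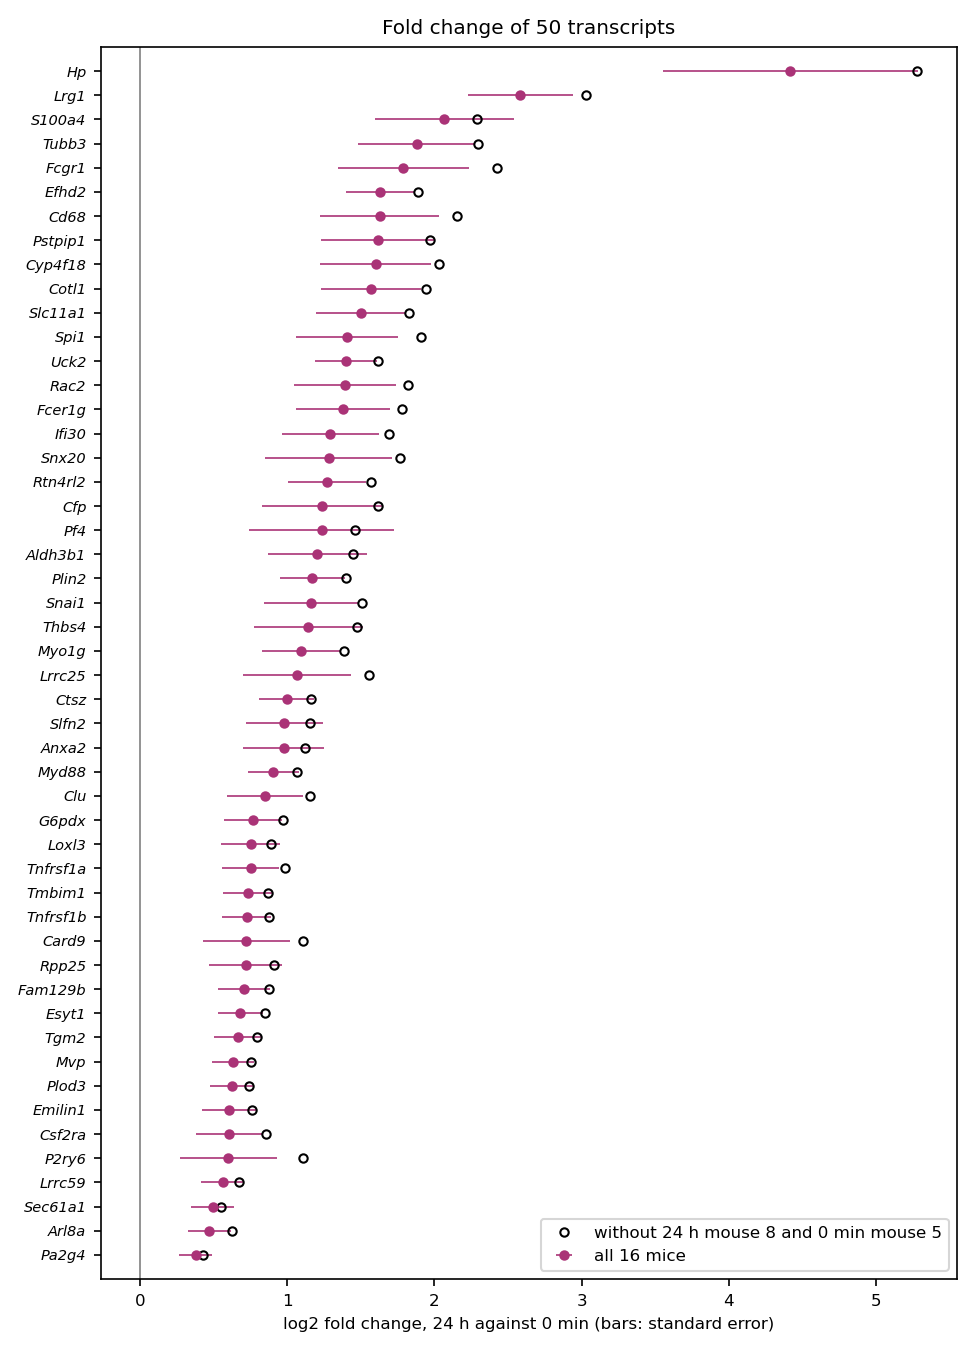
Fitted log2 fold change at 24 h against 0 min for 50 of the 52 members, ordered by size, with all 16 mice of both time points (filled points, bars 1 SE) and without replicate 8 at 24 h and replicate 5 at 0 min (open points). Every open point lies to the right of its filled point; the values with all mice run from 0.38 to 4.42.

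Although every member was higher on average at 24 h, in no member did all 8 mice at 24 h lie above all 8 at 0 min. Among all transcripts tested 0.996% showed such a separation. Against 45 min there was also no member without overlap, beside 0.682% of all transcripts. The mice at 24 h fell into an order that most members shared. Replicate 3 was above every 0 min mouse in all 52 members, replicate 2 in 49 and replicate 4 in 48. Replicates 5, 6 and 7 were above every 0 min mouse in 40, 37 and 37 members, replicate 1 in 9, and replicate 8 in none. The share of all transcripts above every 0 min mouse was not counted for single mice. A small count such as that of replicate 1, or its split by role below, is therefore not read as a difference.

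Replicate 8 at 24 h was at the level of the 0 min mice in the members. Its level was below the 0 min mean in 36 of the 52 members, and its median distance from that mean was -0.06 on the log2 scale. In Csf2ra, Lrrc59, Anxa2 and G6pdx the lowest 24 h mouse was replicate 1 instead. The median distances from the 0 min mean were 0.34 for replicate 1, 0.87 for replicate 5, 0.88 for replicate 6 and 0.92 for replicate 7. They were 1.34 for replicate 4, 1.54 for replicate 2 and 1.73 for replicate 3. Compared with the 0 min mice other than replicate 5, replicate 1 was above all of them in 31 members and replicate 8 in 6, among them Tmbim1, Uck2, Lrrc59, Lrg1 and Efhd2.

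The role groups did not place each mouse alike. In replicate 1 the 9 members above every 0 min mouse were Tmbim1, Uck2, Pa2g4, Lrg1, Plin2, Efhd2, Sec61a1, Mvp and Myd88. They included 5 of 11 biosynthesis genes, 1 of 11 receptors, 1 of 9 phagosome genes and 0 of 5 matrix genes. These counts depend on replicate 5 at 0 min, the highest mouse of its time point in 49 members. By median distance from the 0 min mean the order was another. Replicate 1 lay at 0.45 in the phagosome genes, 0.38 in the receptors, 0.26 in the biosynthesis genes and 0.10 in the matrix genes. Replicate 3 was the highest 24 h mouse in 35 members. Replicate 4 was the highest in 11, which included 3 of the 5 secreted proteins (Hp, Pf4 and Cfp) as well as S100a4 and Snx20. Its median distance from the 0 min mean was 2.81 in the secreted proteins, above the 1.76 of replicate 3, but 0.89 in the biosynthesis genes, where replicate 3 had 1.19. Lrg1 was highest in replicate 5 and Plin2 in replicate 6.

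**Figure D4:**
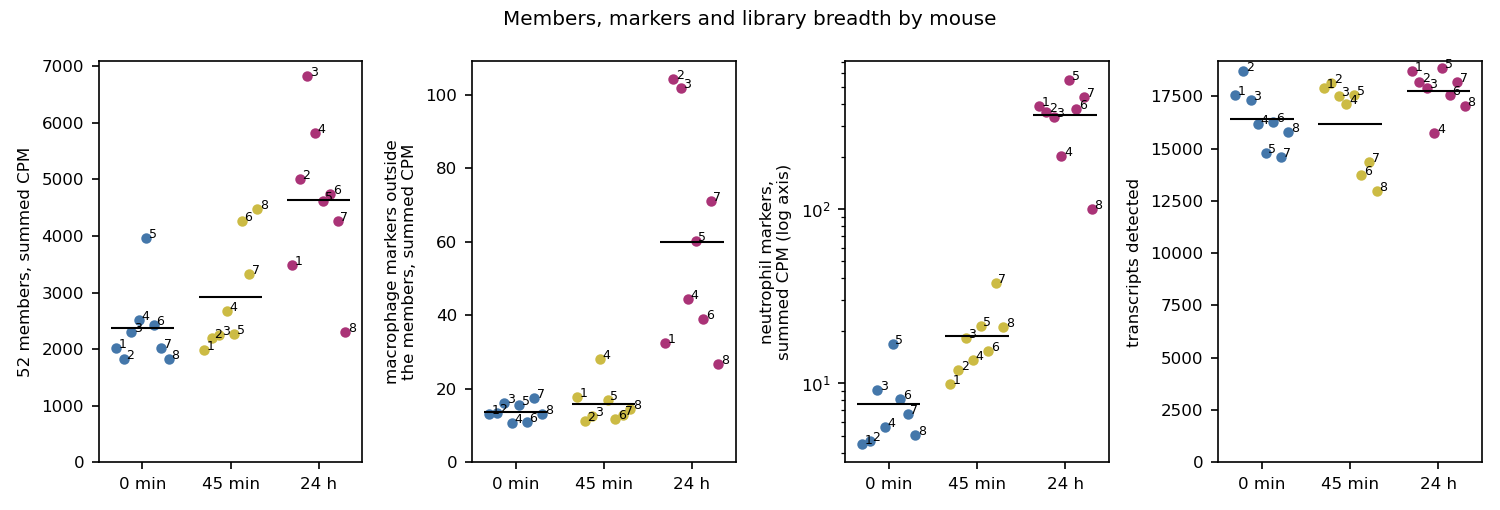
Per-mouse sums by time point: CPM of the 52 members, CPM of 5 macrophage and monocyte symbols outside the module, CPM of 5 neutrophil symbols (log axis), and the number of transcripts detected; points are mice with their replicate number and bars are means of 8. Replicate 8 at 24 h has a member sum of 2304 CPM, within the 0 min mice, while its sum of the neutrophil symbols, 100.4 CPM, is above all of theirs. At 24 h that sum is mostly Lcn2 (mean 314 CPM over 8 mice), which is also counted among the acute phase proteins.

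Summed over the members, the 24 h mice reached 2304 CPM in replicate 8, 3483 CPM in replicate 1 and up to 6834 CPM in replicate 3, against 1829 to 3966 CPM at 0 min and 1983 to 4469 CPM at 45 min. The highest 0 min mouse was replicate 5 and the next had 2520 CPM. The sum weighs Clu and Tgm2 most, as they have the most reads. In replicate 8 the other modules that were high at 24 h did not all sit at the 0 min level. It was above every 0 min mouse in 0 of the 52 members, but in 35 of 101 tested transcripts of M[5] (34.7%), 49 of 103 of M[7] (47.6%) and 100 of 126 of M[9] (79.4%). Replicate 4 was above every 0 min mouse in 48 of 52 members, 81 of 101 transcripts of M[5] (80.2%), 84 of 103 of M[7] (81.6%) and 22 of 126 of M[9] (17.5%). These 3 modules were chosen by the study on the same mice, and the difference between modules was not tested.

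Between mice at 24 h the members varied more than most transcripts. The SD over 8 mice of log2(CPM + 0.5) had a median of 0.62 over the members and 0.37 over all transcripts tested. At 0 min the medians were 0.44 and 0.38, and at 45 min they were 0.44 and 0.47. A wider spread at 24 h was not particular to the members. The median SD was 0.34 at 0 min and 0.57 at 24 h in M[7], 0.37 and 0.46 in M[5], and 0.32 and 0.33 in M[9]. The SD was larger at 24 h than at 0 min in 47 of 52 members, against 48.0% of all transcripts. Snai1, Rtn4rl2, Clu and Arl8a were among the members with a smaller SD at 24 h. The coefficient of variation in CPM at 24 h had a median of 39.6%, where the numbers of reads alone would give 5.37%. It was more than 2 times the counting error in all 52 members. The same held in 47 members at 0 min and 44 at 45 min, where the median counting errors were larger (8.94% and 8.48%). Since variation across these mice formed the module, the comparison is a description.

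**Figure D5:**
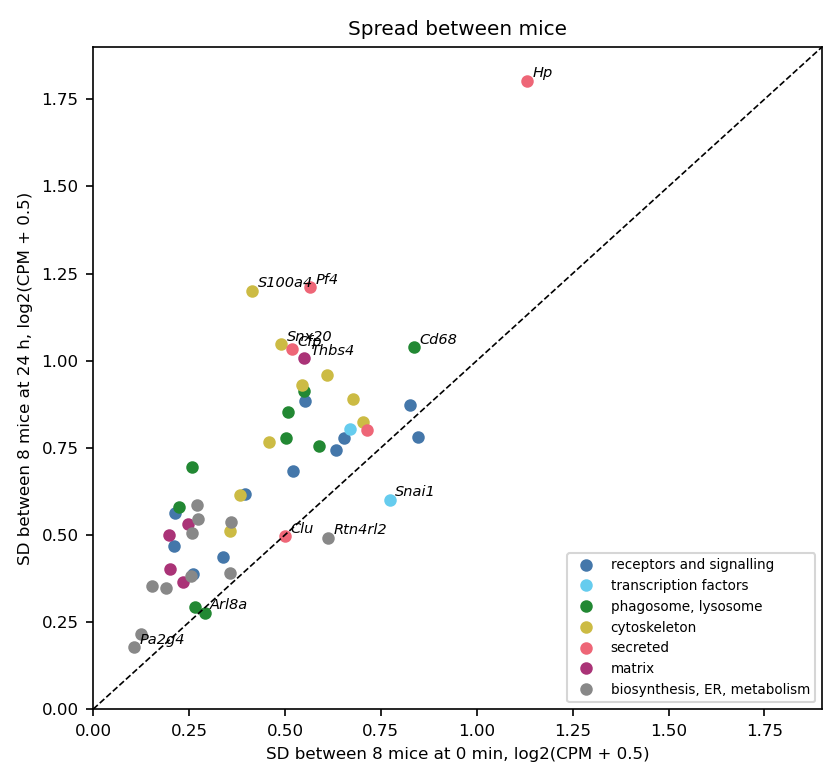
SD between the 8 mice at 24 h (vertical) against the SD between the 8 mice at 0 min (horizontal) for each member, both of log2(CPM + 0.5), colored by role; the dashed line marks equal spread. Of the 52 members 47 lie above the line, with Hp highest at 1.80, and biosynthesis genes are mostly at the lower left.

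The spread differed among roles, with median SDs at 24 h of 1.03 for the secreted proteins, 0.89 for the cytoskeleton genes, 0.75 for the phagosome genes, 0.68 for the receptors, 0.50 for the matrix genes and 0.39 for the biosynthesis genes. The largest values were 1.80 in Hp, 1.21 in Pf4, 1.20 in S100a4, 1.05 in Snx20 and 1.04 in Cd68. The smallest were 0.18 in Pa2g4, 0.22 in Sec61a1, 0.28 in Arl8a, 0.29 in Tmbim1 and 0.35 in Lrrc59. The highest 24 h mouse exceeded the lowest by 1.48 times in Pa2g4, by a median of 3.92 times over the members and by 88.6 times in Hp.

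Replicate 8 held a median of 39.9% of the sum of squares between the 24 h mice and the largest share of any mouse in 41 members, replicate 3 held 21.4% and replicate 1 held 11.5%. Without replicate 8 the median SD was 0.49. The SD of Lrg1 dropped from 0.80 to 0.26 without replicate 8, and that of Hp from 1.80 to 0.87 without replicate 4. In Cd68 it was 1.04 with replicate 8 and 0.73 without it.

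Without replicate 8 at 24 h and replicate 5 at 0 min, an alternative added after seeing the data, 30 of the 52 members had no overlap between 24 h and 0 min, beside 2.43% of all transcripts. Both libraries were picked for their values in the members, which lowers the overlap and raises the fold changes of the members by construction, so nothing is read from these values. The 30 members were 8 of 9 phagosome genes, 7 of 11 biosynthesis genes, 6 of 11 receptors, 5 of 9 cytoskeleton genes, 3 of 5 secreted proteins, 1 of 2 transcription factors and 0 of 5 matrix genes. In the other 22 the lowest 24 h mouse was replicate 1 in 21 and replicate 6 in 1. In the same fit 51 members were called higher, beside 5.15% of all transcripts, with Pf4 the one not called. The median log2 fold change was then 1.39. The log2 fold change was then 2.42 ± 0.39 in Fcgr1, 2.15 ± 0.34 in Cd68, 1.78 ± 0.26 in Fcer1g and 3.03 ± 0.30 in Lrg1.

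At 45 min the members were on average close to 0 min, with a median log2 fold change of 0.20, a range of -0.35 to 1.18 and a positive sign in 41 of 52. The 45 min mice differed among themselves. Replicates 1, 2, 3 and 5 at 45 min were below the 0 min mean in 49, 36, 36 and 35 of the 52 members, so the positive signs rested on the other mice. Replicate 8 at 45 min was above every 0 min mouse in 32 members, replicate 6 in 15, replicate 7 in 13, replicate 4 in 7 and the other 4 mice in none. For these mice too the share of all transcripts was not counted, and small counts are not read as a difference. In replicate 8 at 45 min all 5 secreted proteins, 9 of 11 biosynthesis genes and 2 of 11 receptors were above every 0 min mouse. Pf4 was at 74.5 CPM and Clu at 2087 CPM. These counts depend on replicate 5 at 0 min, as the mouse was above all other 0 min mice in 48 members. Its median distance from the 0 min mean was 1.96 in the secreted proteins, 0.77 in the receptors and 0.58 in the biosynthesis genes. Replicates 6, 7 and 8 were the libraries with the fewest transcripts detected. A model with that number as a covariate was tested for 24 h against 0 min alone. It called all 52 members higher, beside 6.47% of all transcripts. The difference at 45 min was not tested with this covariate, and the part of detection in the result was not tested. With both libraries named above left out, Rtn4rl2 was called higher at 45 min.

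Markers of cell types were counted from lists of well-known genes, of which only those among the 1209 transcripts with a symbol could be found. These had been chosen by the study for their change over time on the same samples, so the counts are no independent evidence of direction. For macrophages and monocytes 7 of 20 symbols were found, and all 7 tested transcripts were called higher at 24 h. Cd68 and Fcgr1 among them are members, and Mpeg1 (1.85 ± 0.25), Msr1 (2.94 ± 0.39), Siglec1 (1.57 ± 0.27), Ccr2 (2.91 ± 0.42) and Ly6c2 (1.92 ± 0.57) are not. The 5 outside the module summed to 10.6 to 17.5 CPM at 0 min, and at 24 h to 26.7 CPM in replicate 8, 32.6 CPM in replicate 1 and 39.1 to 104 CPM in the others, so that all 24 h mice lay above all 0 min mice. Replicate 5 at 0 min, at 15.6 CPM, was inside the range of its time point in that sum while it was the highest mouse in Cd68 and Fcgr1.

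For neutrophils 5 of 15 symbols were found (Hdc, Mmp9, Mmp8, Cxcr2 and Lcn2) and all were called higher at 24 h. Their sum, at 24 h mostly Lcn2, was 4.47 to 16.8 CPM at 0 min, 9.92 to 37.5 CPM at 45 min and 100.4 to 552 CPM at 24 h. The lowest 24 h mouse was again replicate 8, the next was replicate 4 at 200.5 CPM, and replicate 1 was at 392 CPM. Of 9 platelet symbols Pf4 and Ppbp were found and Ppbp was called (2.73 ± 0.53). Of 10 fibroblast symbols Thbs4, Col3a1 and Col1a2 were found and Col3a1 was called (0.75 ± 0.22). Of the 12 cardiomyocyte symbols 3 were found, of which Actc1 and Mybpc3 were called lower. No symbol of the lists for T and NK cells, B cells, endothelium or red blood cells was found, and they were not analysed here. The part of cell numbers in the levels of the members was not tested.

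Partners of the members lay partly in other modules. Of the Fc gamma receptors and partners, 5 of 10 were found and all were called, with Fcgr4 (1.88 ± 0.35) and the kinase Fgr (3.29 ± 0.54) outside M[6]. Of the toll-like receptor pathway 4 of 17 were found, with Myd88 and Tlr13 (2.37 ± 0.32) called and Tlr4 (0.68 ± 0.25) and Irak4 (0.52 ± 0.22) not. Of the acute phase proteins 4 of 14 were found and all were called, Lrg1 and Hp as members and Serpina3n (5.25 ± 0.40) and Lcn2 (7.09 ± 0.48) in M[7].

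Each member had 1 position in GENCODE M21 on the GRCm38 build. Spi1 lies at chr2:91082390-91115756 on the plus strand, Cd68 at chr11:69664213-69666153, Fcer1g at chr1:171229572-171234365, Lrg1 at chr17:56119678-56122001, Hp at chr8:109575128-109579172 and Thbs4 at chr13:92751590-92794818, these 5 on the minus strand. All 6 are protein-coding genes, and counts cover their annotated exons. In 19 members an exon overlaps an exon of another gene, in 15 of them on the opposite strand alone. The strand setting of the counting was not given in the sources used here. Reads of the pairs Lrrc59 and Eme1, Tgm2 and Rprd1b, Ctsz and Nelfcd, Plod3 and Znhit1, Loxl3 and Htra2, and Myd88 and Acaa1a may thus have been shared or discarded. The same holds for Fam129b and Lrsam1, Cyp4f18 and Zfp961, and G6pdx and Ikbkg. S100a4 and Mvp overlap a protein-coding gene on their own strand, and Pa2g4 and Plod3 a microRNA gene.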

How the data were processed

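RNA from the left ventricle of 24 single mice was sequenced with a directional poly(A) kit. Per the submitters' processing notes, the authors trimmed reads with cutadapt 1.9.1, aligned them to mm10 with TopHat2 2.1.0 and Bowtie2 2.2.9 and counted them per transcript with HTSeq 0.6.0. The strand setting and counting mode were not given in the sources used here. The deposited values were raw counts, and 0 columns lacked a sample. Totals of 9887957 to 14091629 counts gave the members a median counting error of 5.37% (CV) at 24 h.

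Transcripts were filtered with filterByExpr (minimum count 10, minimum total 15), scaled by TMM and fitted with edgeR 4.0.16 (R 4.3.3) over all 24 samples with time as the only factor. P-values came from the quasi-likelihood test, adjusted by Benjamini-Hochberg over 8940 transcripts with a threshold of 0.05; "called" means past it. The SE is the size of the log2 fold change divided by the square root of F. Spread is the SD of log2(CPM + 0.5). Scripts were tested on simulated data. DESeq2 1.42.0, other scale factors, no filter, a replicate block, and leaving out each mouse were alternatives.

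Module membership and symbols came from the study's supplementary lists, and their statistics were not used. Members and lists were chosen with earlier results of these data known. Named by rule were 29 members, which were Spi1, Cd68, Fcer1g and Fcgr1, the 3 members of highest mean CPM in each role group, the 6 largest and 4 smallest log2 fold changes at 24 h and the 5 largest and 5 smallest SDs between mice at 24 h. Other members with values were chosen after their values were seen. Promoters of members that include Clu, Cotl1, Fam129b, Hp, Loxl3, Lrrc25, P2ry6, Rac2, Sec61a1, Snx20, Spi1 and Tgm2 were not used here. Of the 38 windows, 35 led into an annotated transcript of the gene. Some members count in the totals but are not reported here singly.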

Additional observations from a re-analysis of the deposited data

Results flagged for a closer look

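Among 90 groups of 8 mice, made of the named members and the summed members at each time point, 11 held a mouse whose gap to its nearest neighbour exceeded Dixon's critical value for 8 samples, which chance gives in about 1 in 20 groups. The mice are shared between members, so these are not separate events. In 7 of them replicate 5 at 0 min was the highest mouse. It had 27.0 CPM in Fcer1g, 17.4 CPM in Spi1, 130.0 CPM in Tnfrsf1a, 108 CPM in Plin2, 69.9 CPM in Lrrc59 and 1912 CPM in Clu, and 3966 CPM summed over the members. Replicate 8 at 24 h was the lowest mouse in Lrg1 with 121 CPM and in Myd88 with 18.0 CPM. Replicate 4 at 24 h was the highest in Hp with 165 CPM, and replicate 2 at 0 min was the lowest in Pa2g4 with 51.4 CPM.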

How the results depend on the processing

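Leaving out each mouse in turn gave 24 to 47 members called at 24 h against 0 min (3.05% and 4.41% of all transcripts in those fits), 12 to 31 against 45 min and 0 at 45 min against 0 min. The members without overlap between 24 h and 0 min then numbered 0 to 7, with 7 without replicate 8 at 24 h (1.64% of all transcripts) and 5 without replicate 5 at 0 min (1.52%). The median log2 fold change was 0.90 to 1.26 and the median SD at 24 h 0.48 to 0.66, with scale factors set anew each time. The members without overlap numbered 1 with RLE factors (1.1% of all transcripts), 2 with upper quartile factors (1.05%) and 4 without factors (1.3%), and the cause was not tested. Against 45 min, 15 members were called with only the samples of both time points (3.52% of all transcripts), where fewer samples enter. With both replicate 8 at 24 h and replicate 5 at 0 min left out, 51 members were called against 0 min (5.15% of all transcripts), 41 against 45 min (4.91%) and 1 at 45 min (0.575%), and 30 did not overlap (2.43%). Against 0 min, RLE factors called 43 (4.64% of all transcripts), upper quartile factors 45 (4.5%), no filter 36 (1.36% of 27661 transcripts) and DESeq2 46 (4.01%).

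Replicate numbers named different mice. Over 24 pairs with the same number at different time points, deviations from the group means correlated at -0.54 to 0.58 (median 0.12). Of these pairs 13 lay above 0.1, and 6 of 24 samples correlated best with their own number. Whether samples of equal number shared a step of handling cannot be told from these values. With the replicate block 38 members were called against 0 min (3.96% of all transcripts), 0 at 45 min (0.391%) and 15 against 45 min (3.75%). For the fold changes of the 29 named members, 763 of 928 values under the alternatives kept their direction and side of the threshold, 158 no longer passed, 7 newly passed and 0 changed sign. Within a time point no 2 libraries agreed within sampling noise, as chi-square divided by its degrees of freedom was 10.6 or more in 84 pairs. Each library is 1 mouse, and no repeat library of a mouse separates technical from biological spread. Low members such as Hp, with as few as 2 reads at 0 min, had the widest errors.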
